A study of Mus musculus with 16 samples.

Results

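The transcripts of 9 fragile X protein targets, the GTPase regulators Gbf1, Abr, Arhgef11 and Sipa1l2, the cytoskeletal genes Map1a and Clip3, the synaptic genes Rph3a and Grm4, and the nuclear Zc3h4, were followed gene by gene through the adult prefrontal cortex of Arid1b-mutant and wild-type mice raised with or without fluoxetine. They are the targets that the study had singled out from RNA of the whole brain, apart from Hdac4. All 9 symbols matched 1 row each of the 18424 genes measured. None of the 9 passed the multiple-testing threshold between any groups. In the main fits, without adjustment for olfactory bulb markers, no comparison had more than 2 of the 9 at an unadjusted p under 0.05. These were Gbf1 with Map1a in one and Gbf1 with Abr in another, where 10.4% and 11.9% of all genes passed that limit. With that adjustment Gbf1, Rph3a and Clip3 passed it for fluoxetine in wild types and for the interaction of genotype and fluoxetine. The share of all genes that did so was not counted. When the 5 mice with those markers were left out instead, the log2 change with fluoxetine in wild types was -0.089 for Rph3a. It was then 0.027 for Clip3 and 0.26 for Gbf1.

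Tissue came from male C57BL/6N mice at postnatal day 120 (P120), 4 mice in each of 4 groups, 16 in all, with 1 poly(A) RNA-seq library per mouse. WT-Veh mice were wild type and HT-Veh mice carried 1 truncated germline copy of Arid1b (Arid1b+/-), which encodes a subunit of the BAF chromatin-remodelling complex. The dams of both vehicle groups drank 0.2% saccharin water, and those of the WT-Flx and HT-Flx groups drank the same water with 0.1 mg/ml fluoxetine hydrochloride, a serotonin reuptake inhibitor, from P3 to P21, so that pups received the drug through milk. All mice drank plain water after weaning, and the labels do not tie mice to dams, so mice of a group may share a mother and the p-values measure only the spread between these mice. The deletion is present in every cell of the animal from conception, and the bulk tissue mixes all cell types, so fewer cells of a type and less RNA per cell cannot be told apart.

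FMRP, the protein missing in fragile X syndrome, is an RNA-binding protein of neurons that associates with the coding part of many long brain transcripts and is best known for holding back their translation. Its catalogued targets are rich in presynaptic, postsynaptic and cytoskeletal proteins. FMRP acts mainly on protein output, and RNA-seq measures only the amount of transcript. Short words in RNA have been linked to sites where FMRP was crosslinked, among them AGGA and TGGA (written with T for U) and ACTT and ACTG.

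The 9 members had long coding sequences. All 9 had a longest coding sequence above the median of 1419 bases over 14901 protein-coding genes of the GENCODE annotation, from 1641 bases in Clip3 to 9042 bases in Map1a. AGGA and TGGA together, counted on the sense strand of that coding sequence with overlaps allowed, were present at a median of 16.3 per kilobase over all these genes. Rph3a held 23.5 per kilobase, Map1a 21.5 and Grm4 11.3, which put them at the 91.3, 85.1 and 13.7 percentiles, and 5 of the 9 members lay above the median. ACTT and ACTG had a median of 8.28 per kilobase, and 6 of the 9 members lay below it, the lowest being Arhgef11 with 4.94. The densest stretch of 60 bases within 1 coding exon is printed 5′ to 3′ on the sense strand for the 4 members with the clearest group differences or the widest range over mice. AGGA and TGGA stand in capitals.
Map1a: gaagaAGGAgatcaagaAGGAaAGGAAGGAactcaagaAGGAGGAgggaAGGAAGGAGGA
Gbf1: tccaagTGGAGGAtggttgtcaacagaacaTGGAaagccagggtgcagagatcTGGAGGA
Grm4: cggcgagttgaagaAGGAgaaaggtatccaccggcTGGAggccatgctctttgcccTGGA
Abr: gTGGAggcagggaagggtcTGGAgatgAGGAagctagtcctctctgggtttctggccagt
The Map1a stretch (GRCm38, chr2:121300675-121300734, plus strand, exon 5) held 9 such words, and 1.3% of the 14901 coding sequences had a stretch with at least as many. Longer coding sequences hold more stretches, and these shares were not matched for length, in which Map1a stood at the 99.1 percentile. The Gbf1 stretch (chr19:46265651-46265710, plus strand, exon 16) held 5, a number reached by 22.6% of coding sequences. The stretches of Grm4 (chr17:27502906-27502965, minus strand, exon 2) and Abr (chr11:76486477-76486536, minus strand, exon 2) held 3 each, as did 84.5% of coding sequences or more. These letter counts describe the transcripts and are not binding sites.

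Per kilobase of exon, the members fell into a high and a low tier. Clip3, a microtubule-binding CAP-Gly protein of the trans-Golgi network, had the highest level, a mean of 3621 normalized reads per kilobase over the 16 mice. Map1a, a microtubule-associated protein of mature neurons, reached 3339, and Rph3a, the synaptic vesicle protein rabphilin-3A, reached 3302. These 3 did not differ beyond their spread, since the SDs within groups ran from 282.8 to 820.8 for Rph3a alone. Abr, a regulator of Rac GTPases, followed at 1432, the 95.6 percentile of protein-coding genes.

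The low tier began with Arhgef11, a guanine nucleotide exchange factor, at a level of 320.8 normalized reads per kilobase. Gbf1, the exchange factor that activates Arf1 at the Golgi, had a level of 224.9 and Zc3h4, a nuclear zinc-finger protein that limits transcription of non-coding RNA, one of 193.9. The ranges of mean ± SD of Gbf1 and Zc3h4 overlapped in 3 of the 4 groups, and in WT-Flx mice Gbf1 was higher, at 265.6 ± 24.2 against 189.4 ± 26.0. Sipa1l2, a Rap GTPase-activating protein, stood at 144.4 and Grm4, the presynaptic group III metabotropic glutamate receptor mGlu4, at 122.9, again within the Grm4 SD of up to 49.1. Counted by coding length, the order of Map1a, Rph3a and Abr and that of Gbf1 and Zc3h4 shifted, and Clip3 stayed first and Grm4 last.

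**Figure D1:**
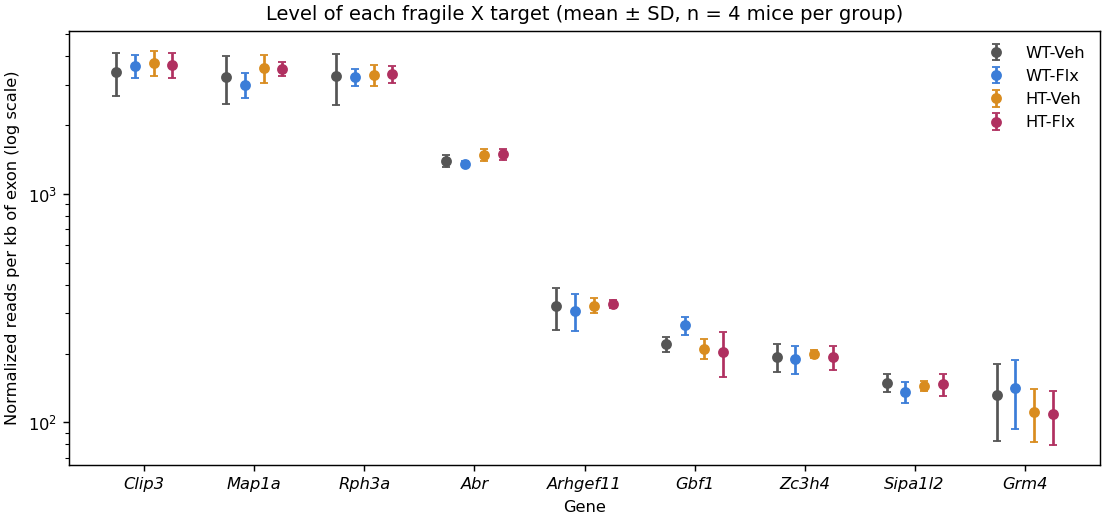
Level of each target in normalized reads per kilobase of exon on a log axis, as the mean ± SD of 4 mice in each of the 4 groups. Clip3, Map1a and Rph3a lie at 3006 or above in every group, Abr at 1357 to 1497, and the other 5 between 108.3 and 330.6.

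The labels were checked with Arid1b and with cell type markers. Normalized reads of Arid1b averaged 2368 ± 432 (SD, n = 4) for the WT-Veh and 2159 ± 233 for the WT-Flx group. HT-Veh mice had 1795 ± 160 and HT-Flx mice 1636 ± 61.0. Over both treatments the Arid1b log2 change in heterozygotes was -0.39 (SE 0.080, limma adjusted p = 0.0969), so the direction followed the genotype without passing the threshold, and the vehicle groups overlapped. In 5 mice the mean log2 level of 8 olfactory bulb markers was 7.51 to 9.81, against 4.33 to 5.46 in the other 11. The 5 were 3 WT-Flx mice (replicates 1, 2 and 4), HT-Veh replicate 4 and WT-Veh replicate 1. Of those markers 7 of 8 did not overlap between the 5 mice and the 11, for example Eomes at 148.6 to 898.8 against 0 to 25.3 normalized reads, and Tpbg did. The summed level of 6 glutamatergic neuron markers was 113125 to 154022 in the 5 mice and 170094 to 204025 in the 11. No HT-Flx mouse was among the 5, so group comparisons are also given without them or with the marker score as a covariate.

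Gbf1 was the member with the largest fluoxetine difference. Its normalized read counts were 2155, 2546, 2494 and 2358 in WT-Veh mice and 2846, 2550, 2953 and 3182 in WT-Flx mice. Every WT-Flx mouse lay above every WT-Veh mouse, though the nearest pair, 2546 and 2550, were all but level. In vehicle-treated heterozygotes Gbf1 was 2264, 2235, 2589 and 2044, and in HT-Flx mice it was 2841, 1723, 2335 and 1941. The HT-Flx group had both a mouse in the WT-Flx range and the lowest of all 16 values.

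The log2 change of Gbf1 in WT-Flx versus WT-Veh was 0.27 (SE 0.094, 95% interval 0.062 to 0.48, limma adjusted p = 1.00), which is a mean level of 120.7% of the vehicle level. It was the only member whose groups did not overlap in that comparison, against 2.89% of all 16833 genes tested, and its two-sided exact permutation p of 0.0286 is the smallest that 4 mice against 4 can give. Between the heterozygous groups the Gbf1 change with fluoxetine was -0.068 on the log2 scale (95% interval -0.36 to 0.23) and the groups overlapped. The difference between these fluoxetine changes, the genotype by fluoxetine interaction, was -0.34 on the log2 scale (SE 0.18, 95% interval -0.71 to 0.036, limma adjusted p = 0.998).

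The genotype difference of Gbf1 after fluoxetine was the widest of any member. HT-Flx mice had a mean Gbf1 level of 76.7% of the WT-Flx mean, a log2 change of -0.40 (SE 0.14, 95% interval -0.71 to -0.095, limma adjusted p = 0.381), and the groups overlapped through HT-Flx replicate 1. Over both treatments Gbf1 averaged 2247 ± 356 in heterozygotes and 2635 ± 335 in wild types (SD, n = 8), a log2 change of -0.24 (standard error 0.095, limma adjusted p = 0.391). The exact permutation test within treatments gave p = 0.0384 for that pooled difference, unadjusted. Between the vehicle groups the log2 change was -0.067 (95% interval -0.26 to 0.12). Without HT-Flx replicate 2 the pooled change was -0.17, and the HT-Flx versus WT-Flx change was -0.29.

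The mouse with bulb markers had the lowest Gbf1 level of its group in WT-Veh (2155) and in HT-Veh (2044), whereas the 3 such WT-Flx mice lay on both sides of WT-Flx replicate 3, which had 2953. With the bulb score as a covariate its HT-Flx versus WT-Flx log2 change was -0.50 (SE 0.14, limma adjusted p = 0.423) and its WT-Flx versus WT-Veh change was 0.32. Without the 5 mice, which leaves 1 WT-Flx mouse assumed to vary like the other groups, these changes were -0.44 and 0.26. Of the 11 genes listed beside Gbf1 under Arf1 activation at the Golgi (Arf1, Arf3, Arf4, Arf5, Arfgef1, Arfgef2, Copa, Copb1, Copb2, Copg1 and Golga2), 0 passed the threshold in any of the 7 comparisons. The smallest unadjusted p among them belonged to Arfgef1, whose log2 change in HT-Flx versus HT-Veh was -0.22 (SE 0.085, limma adjusted p = 1.00).

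**Figure D2:**
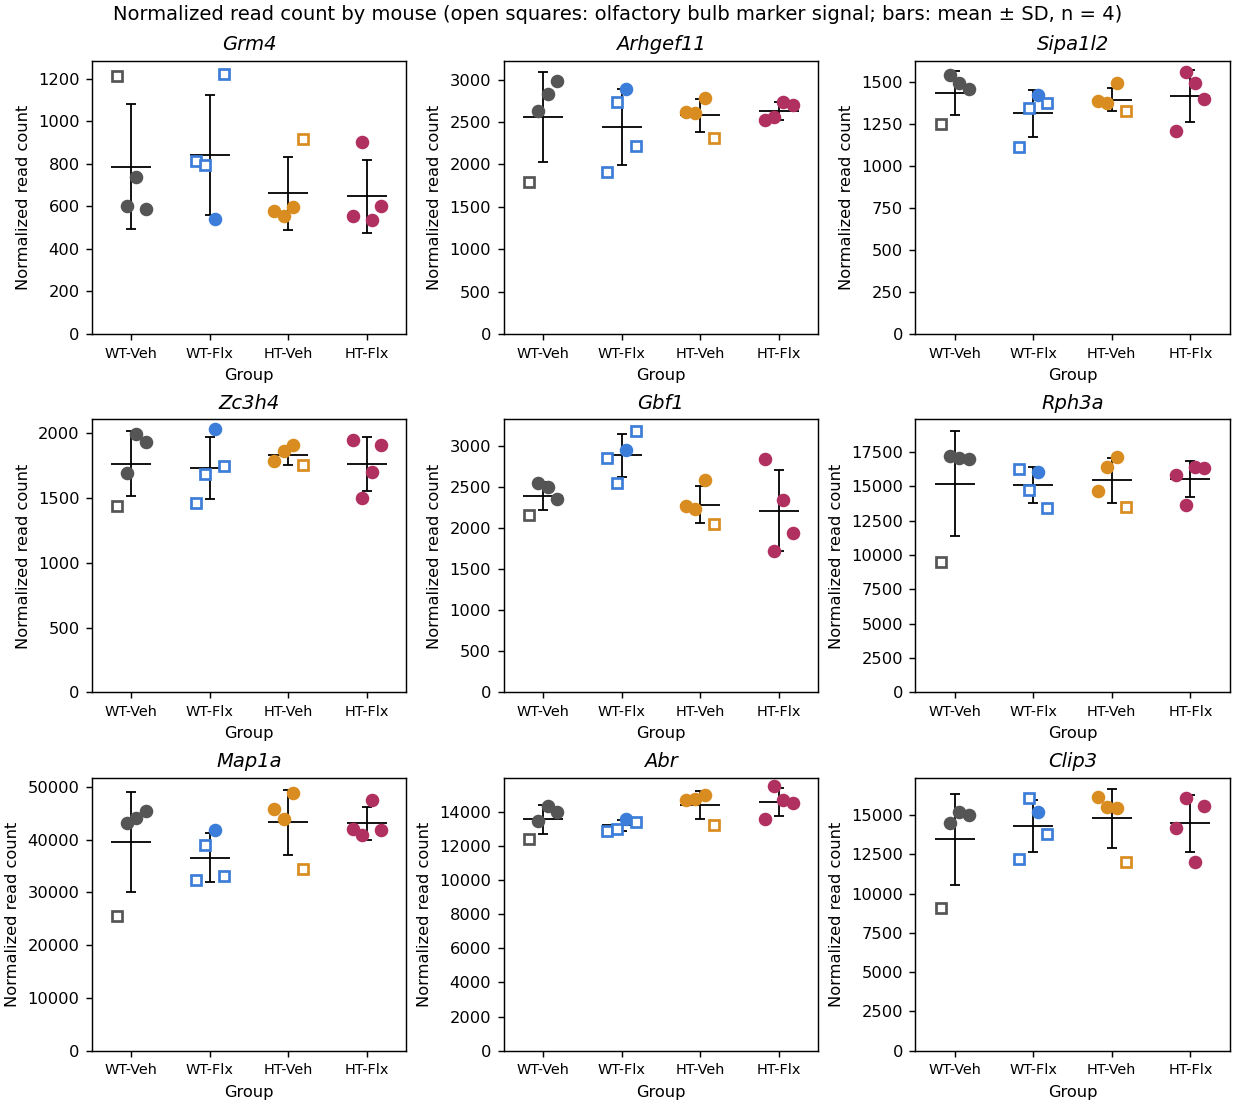
Normalized read count (y axis, from 0) of each target in each of the 16 mice by group (x axis), with the mean ± SD of the 4 mice. Open squares mark the 5 mice with olfactory bulb markers, which hold the lowest Map1a and Abr values. How many of all genes are lowest in them was not counted. The 4 WT-Flx mice lie above the 4 WT-Veh mice for Gbf1.

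Abr, which carries both an exchange-factor and a GTPase-activating domain, differed by genotype in the other direction. Its normalized read counts were 12848, 13010, 13561 and 13379 in WT-Flx mice and 13568, 15521, 14701 and 14489 in HT-Flx mice. The groups did not overlap, but their nearest mice stood only 13561 against 13568. The mean of HT-Flx mice was 110.4% of the WT-Flx mean, a log2 change of 0.14 (SE 0.079, 95% interval -0.032 to 0.31, limma adjusted p = 0.541). Abr was the only member that did not overlap there (two-sided exact permutation p = 0.0286), against 5.83% of the 16788 genes tested. With the bulb score as a covariate this Abr change was 0.061 (SE 0.070) and without the 5 mice it was 0.10 (SE 0.083).

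In vehicle-treated mice Abr read 12428, 13432, 14350 and 14016 in wild types and 14699, 14778, 15002 and 13214 in heterozygotes. The groups overlapped through HT-Veh replicate 4, the heterozygote with bulb markers. Over both treatments Abr averaged 14497 ± 753 in heterozygotes and 13378 ± 622 in wild types (SD, n = 8), a log2 change of 0.12 (standard error 0.048, limma adjusted p = 0.391, exact permutation p = 0.0110 unadjusted). All 5 mice with bulb markers had Abr levels of 12428 to 13379, below all 11 others at 13432 to 15521. The share of all genes that separate the 5 mice from the 11 was not counted. With the bulb score as a covariate the pooled log2 change was 0.072 (SE 0.045) and without the 5 mice it was 0.094 (SE 0.047), with limma adjusted p values of 0.932 and 0.807.

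Arhgef11, an exchange factor downstream of G-alpha-12/13-coupled receptors and plexin-B, had a log2 change between -0.060 and 0.13 in every comparison of the main fits. With the bulb score as a covariate its HT-Flx versus WT-Flx change was -0.15 (SE 0.12), and without the 5 mice it was -0.13. The lowest Arhgef11 count was 1788 in WT-Veh replicate 1, where bulb markers were highest, and the highest was 2981 in another WT-Veh mouse.

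Map1a, like Abr, was lower in all 5 mice with bulb markers than in the rest, by a wider gap than Abr. It read 32274, 38962, 41901 and 33167 in WT-Flx mice and 42007, 40851, 47599 and 41822 in HT-Flx mice. WT-Flx replicate 3, the WT-Flx mouse without bulb markers, was the only one in the HT-Flx range. The log2 change was 0.24 (SE 0.11, limma adjusted p = 0.465), and with the bulb score as a covariate it turned to -0.11 (SE 0.096). Over all groups the 5 mice with the signal lay between 25437 and 38962, below the 11 others at 40851 to 48840, again without a count of how many genes do so. The summed glutamatergic neuron markers were also lower in all 5 than in the rest, and the summed GABAergic neuron markers were higher. Without the 5 mice the Map1a change in HT-Flx versus WT-Flx was 0.037 (SE 0.097).

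Map1a in vehicle-treated mice was 25437, 43142, 44176 and 45409 in wild types and 45854, 43949, 48840 and 34476 in heterozygotes. In each of these groups 1 mouse with bulb markers stood below the rest. Clip3 was lowest in the same wild-type mouse at 9095, against 14516 to 15163 in the other WT-Veh mice. In the main fits its log2 change lay between -0.14 and 0.16 in every comparison. With the bulb score as a covariate it was 0.27 (SE 0.12) in WT-Flx versus WT-Veh and -0.25 (SE 0.13) in HT-Flx versus WT-Flx. For the interaction it was then -0.38 (SE 0.17). Of the 10 listed microtubule-binding and CAP-Gly proteins and Clip3 partners (Map1b, Map1s, Map2, Mapt, Map4, Map6, Clip1, Clip2, Clip4 and Zdhhc17) 0 passed in any comparison. Zdhhc17, a palmitoyltransferase, had their smallest unadjusted p, with a log2 change of 0.11 over both treatments (SE 0.060, limma adjusted p = 0.478).

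**Figure D3:**
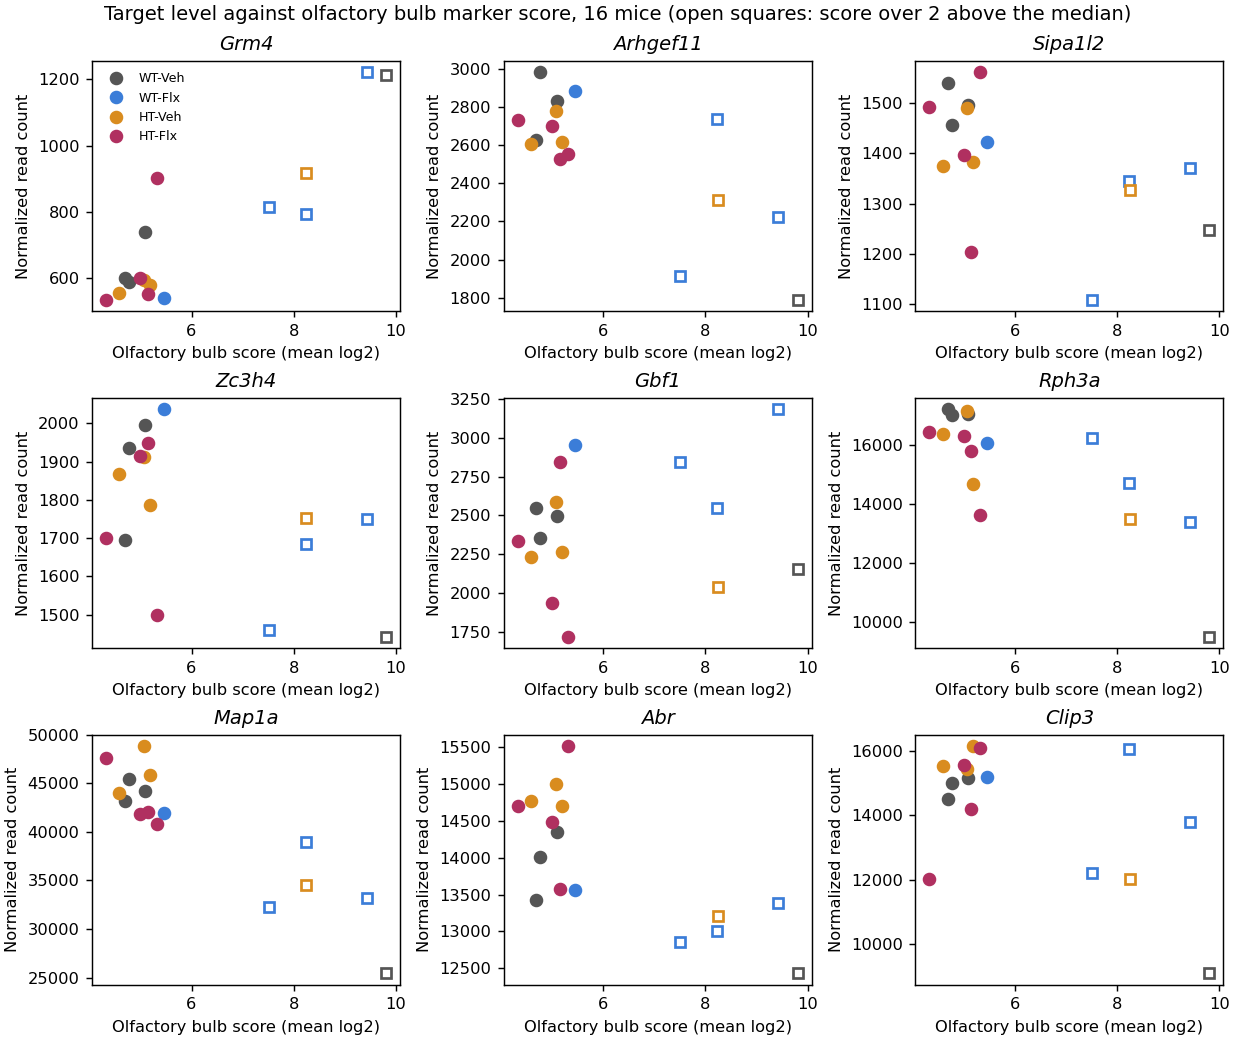
Normalized read count of each target (y axis) against the olfactory bulb score, the mean log2 level of 8 bulb markers (x axis), in 16 mice. The 5 mice with scores of 7.51 to 9.81 (open squares) lie below all others for Map1a and Abr, and Grm4 is 794.3 to 1221 in them. The share of all genes that separate these mice was not counted.

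Grm4 moved the other way with the bulb markers. It read 1214, 602.1, 739.5 and 589.6 in WT-Veh mice, 815.7, 794.3, 540.1 and 1221 in WT-Flx mice, 579.7, 555.7, 595.0 and 917.4 in HT-Veh mice and 552.7, 902.4, 534.6 and 600.3 in HT-Flx mice. The highest 2 values were in the WT-Veh and WT-Flx mice with the highest bulb scores, and HT-Flx replicate 2 was high without bulb markers. The log2 change in HT-Flx versus WT-Flx was -0.35 (SE 0.23, limma adjusted p = 0.589) and turned to 0.24 (SE 0.15) with the score as a covariate. Summed markers of cerebellar granule neurons, a cell type in which Grm4 is abundant, were 1020 to 2269 in the 5 mice. In the others they were 733.5 to 1314, so the ranges overlapped. The sum used 4 of 5 listed markers, Cbln1, Cbln3, Neurod1 and Zic1, since Gabra6 was not among the deposited genes. The part of such cells in the Grm4 values was not tested.

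The other group II and III metabotropic glutamate receptors, Grm2, Grm3, Grm7 and Grm8, had 0 of 4 past the threshold in any comparison. Grm3 had the smallest unadjusted p, with normalized reads of 1527 ± 266 in WT-Flx and 1897 ± 35.8 in HT-Flx mice and a log2 change of 0.33 (standard error 0.12, limma adjusted p = 0.387).

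Rph3a, a Rab3 and Rab27 effector on synaptic vesicles, had group means close to each other when all mice were used. They ran from 15111 in WT-Flx to 15540 in HT-Flx mice, and the HT-Flx versus HT-Veh log2 change was 0.012 (95% interval -0.18 to 0.21). The WT-Veh value was pulled by replicate 1, at 9486 against 17021 to 17224 in the other 3 mice, whose mean was 17099. With the bulb score as a covariate the log2 change of Rph3a in WT-Flx versus WT-Veh was 0.23 (SE 0.089) and that of HT-Flx against WT-Flx mice was -0.30 (SE 0.099), with limma adjusted p values of 0.639 and 0.565. Without the 5 mice these changes were -0.089 (SE 0.11) and -0.053 (SE 0.11). Among 11 genes of vesicle release (Rab3a, Rab3b, Rab27b, Doc2a, Doc2b, Syt1, Snap25, Stx1a, Vamp2, Rims1 and Rph3al) 0 passed the threshold. Rims1, an active-zone scaffold, had the smallest unadjusted p, with a log2 change of 0.35 in HT-Flx versus WT-Flx (SE 0.14, limma adjusted p = 0.419).

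Sipa1l2, which inactivates Rap GTPases and takes part in trafficking of TrkB-containing vesicles, ran from 1109 in WT-Flx replicate 1 to 1560 in HT-Flx replicate 2. Its largest log2 change among the 4 pairs of groups was -0.13 in WT-Flx versus WT-Veh (95% interval -0.37 to 0.11). Of its 9 listed partners (Sipa1, Sipa1l1, Sipa1l3, Rap1a, Rap1b, Rap2a, Rap2b, Snapin and Ntrk2) 0 passed. Rap1a, a small GTPase, had the smallest unadjusted p, at 1005 ± 105 and 1194 ± 133 in WT-Veh and WT-Flx mice and 907.9 ± 36.3 and 899.1 ± 73.9 in HT-Veh and HT-Flx mice. Its log2 change over both treatments was -0.27 (SE 0.073, limma adjusted p = 0.247).

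Zc3h4 varied least of the members among HT-Veh mice, 1753 to 1911 normalized reads (SD 3.96% of the mean). It had a log2 change between -0.058 and 0.061 in every comparison of the main fits. With the bulb score as a covariate its HT-Flx versus WT-Flx change was -0.13 (SE 0.12), and without the 5 mice it was -0.21. A list of 9 nuclear zinc-finger, WDR82-complex and other RNA-processing genes (Wdr82, Srrt, Zc3h6, Zc3h8, Zc3h18, Ncbp1, Ncbp2, Pcf11 and Cpsf4) had 0 past the threshold. Zc3h6, a zinc-finger gene, had the smallest unadjusted p among them, with a log2 change of -0.26 in HT-Flx versus HT-Veh (SE 0.12, limma adjusted p = 1.00).

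**Figure D4:**
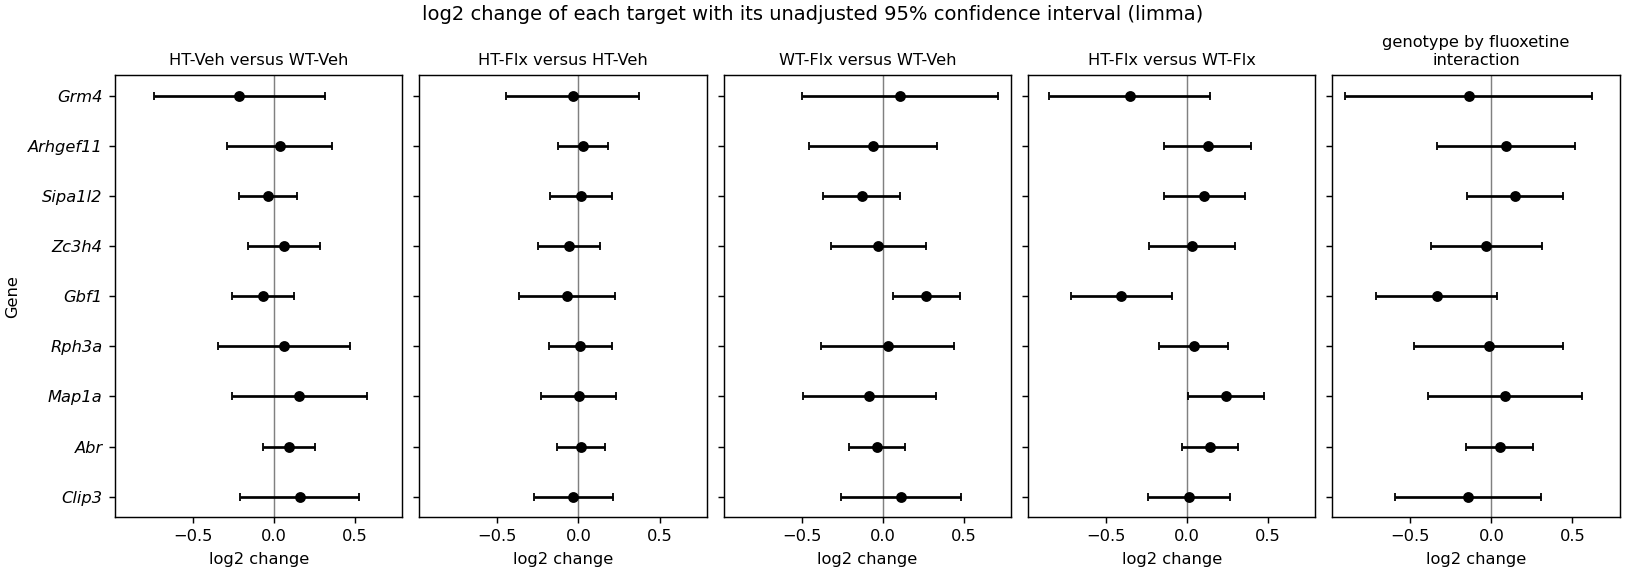
The log2 change (x axis) of each target (y axis) with its unadjusted 95% confidence interval in 4 pairs of groups and in the genotype by fluoxetine interaction. Intervals leave 0 only for Gbf1 in WT-Flx versus WT-Veh and HT-Flx versus WT-Flx and for Map1a in HT-Flx versus WT-Flx.

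As a list, 0 of the 9 members were called by limma (adjusted p under 0.05) in any of the 7. Over all genes tested the same rule called 0.0178% between the vehicle groups, 0.0417% between the fluoxetine groups, 0.0398% for genotype over both treatments and 0% in the other 4, so few calls were available to any list. At an unadjusted p under 0.05, 1 member, Gbf1, passed in WT-Flx versus WT-Veh against 4.20% of genes. In HT-Flx versus WT-Flx 2 members, Gbf1 and Map1a, passed against 10.4%, and for genotype over both treatments 2, Gbf1 and Abr, passed against 11.9%. None passed between the vehicle groups, between the heterozygous groups, for the interaction or for fluoxetine over both genotypes, where 4.88%, 3.07%, 4.29% and 3.11% of genes did. With the bulb score as a covariate Gbf1, Rph3a and Clip3 passed that limit in WT-Flx versus WT-Veh and for the interaction. Gbf1 and Rph3a then did so in HT-Flx versus WT-Flx, and Gbf1 for genotype over both treatments. The share of all genes passing with the covariate was not counted, so these counts have no background to be read against. Without the 5 mice with bulb markers the Rph3a log2 change in HT-Flx versus WT-Flx was -0.053.

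The study's interest in these targets concerned fluoxetine in the heterozygotes. For that comparison in the cortex the paper reports positive enrichment of the whole FMRP target set, from a ranked test not rerun here. The changes of 9 single genes are another measure. With all mice and no adjustment, HT-Flx versus HT-Veh was the comparison with the smallest differences among them. The median log2 change of the 9 was 0.0024, with 5 higher and 4 lower, and the median size regardless of sign was 0.030 against 0.083 over all 16814 genes. With the bulb score as a covariate 8 were lower and 1, Grm4, higher, with a median of -0.090 and a median size of 0.097 against 0.089 over all genes. This size was above those of 0.078 in HT-Veh versus WT-Veh, 0.037 for fluoxetine over both genotypes and 0.029 for genotype over both treatments. Without the 5 mice 8 were again lower and Grm4 higher, with a median of -0.050. Of those 5 mice only HT-Veh replicate 4 belongs to the heterozygous groups. From all mice, the widest of their 95% intervals was that of Grm4, -0.44 to 0.38, and the narrowest that of Abr, -0.13 to 0.16. In HT-Veh versus WT-Veh 6 were higher and 3 lower with a median log2 change of 0.058 (3 and 6 without the 5 mice, median -0.064), and 0 of 9 did not overlap, against 3.84% of genes. In HT-Flx versus HT-Veh 0 of 9 did not overlap, against 1.99%.

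After fluoxetine, 7 of 9 were higher and 2 lower in heterozygotes than in wild types, with a median log2 change of 0.041 against 0.0081 over all genes. These counts of direction carry no test, and 6 of the 9 directions in HT-Flx versus WT-Flx turned with the bulb score as a covariate and 6 without the 5 mice.

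The 55 other catalogued FMRP targets were 42 higher and 13 lower in HT-Flx versus WT-Flx, where 51.6% of all genes were higher, but 14 higher and 41 lower with the bulb score as a covariate and 32 and 23 without the 5 mice. For genotype over both treatments they were 41 higher and 14 lower, and 32 and 23 with the covariate. Between the vehicle groups they were 37 higher and 18 lower, between the heterozygous groups 31 and 24, and 19 and 36 both in WT-Flx versus WT-Veh and for fluoxetine over both genotypes. With the covariate the counts in WT-Flx versus WT-Veh were 41 higher and 14 lower, but without the 5 mice they were 14 and 41. For fluoxetine over both genotypes the counts were 37 higher and 18 lower with the covariate, but 13 and 42 without the 5 mice. The direction in these comparisons therefore depended on how the bulb signal was handled. Between the heterozygous groups the counts also turned, from 31 higher and 24 lower to 17 and 38, both with the covariate and without the 5 mice. Of those 5 mice only HT-Veh replicate 4 belongs to these groups. Of the 55, 0 passed the threshold in any of the 7 comparisons. Dync1h1, the dynein heavy chain, had the smallest unadjusted p, at 17786 ± 1447 and 23433 ± 2423 in WT-Veh and WT-Flx and 14839 ± 1454 and 16533 ± 3174 in HT-Veh and HT-Flx mice. Its log2 change over both treatments was -0.39 (SE 0.087, limma adjusted p = 0.159), the same direction as that of Gbf1.

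**Figure D5:**
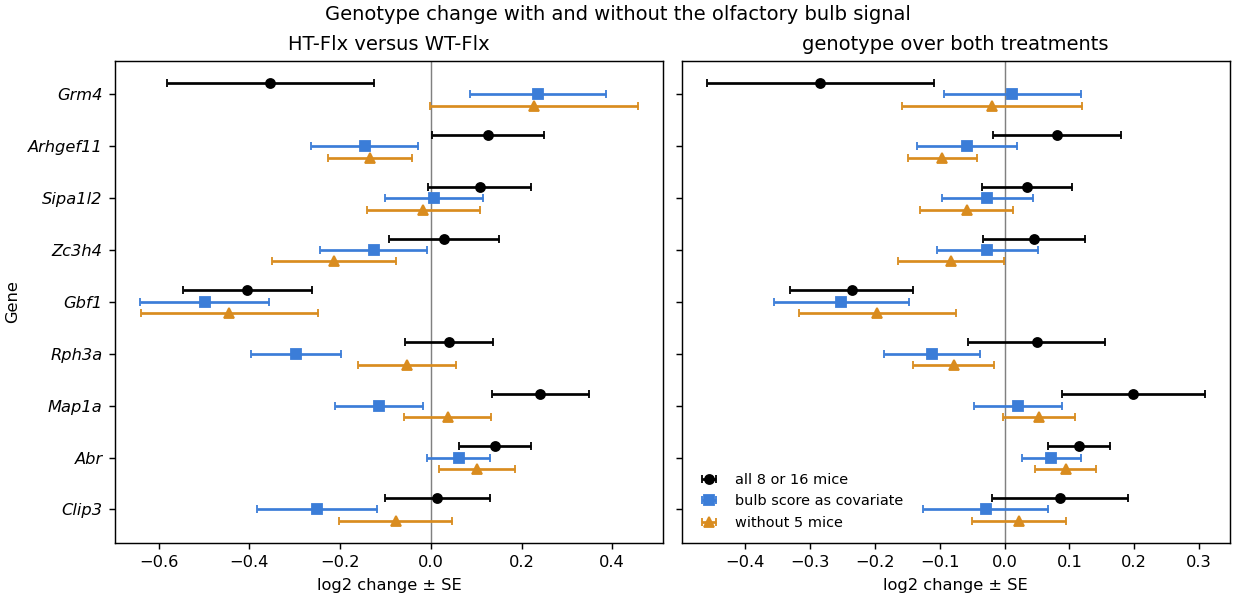
The log2 change ± SE (x axis) of each target (y axis) in HT-Flx versus WT-Flx and for genotype over both treatments, from all mice, with the bulb score as a covariate, and without the 5 mice with bulb markers. Gbf1 stays between -0.50 and -0.20 in all of them, and Map1a, Grm4 and Rph3a change sign in HT-Flx versus WT-Flx with the covariate.

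The genes most like each member over the 16 mice were found among 12543 genes with a mean of at least 100 normalized reads, by Pearson's r of log2 values. These r values are descriptions over mice that share groups and the bulb signal. Grm4 was most like Scg2 (r = 0.97) and Cd24a (r = 0.94), and over the 11 mice without bulb markers these were 0.88 and 0.85. Gbf1 was most like Pon2 (r = 0.88, and 0.91 over the 11) and 6720427I07Rik (r = 0.88, and 0.94). Abr was most like Btbd9 (0.91, and 0.87) and Cmip (0.90, and 0.80).

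Map1a was most like Fstl4 (r = 0.98, and 0.76 over the 11 mice) and Itpr1 (0.97, and 0.77). Clip3 was most like Dnajb14 (0.94, and 0.87) and Trim44 (0.94, and 0.81), and Arhgef11 was most like Gm35040 (0.97, and 0.78) and Usf3 (0.96, and 0.63). Rph3a was most like Dst (0.91, and 0.37) and Rnf157 (0.90, and 0.82). Sipa1l2 was most like Psme4 (0.89, and 0.85) and Tet3 (0.86, and 0.72), and Zc3h4 was most like Sass6 (0.86, and 0.75) and Slc29a3 (0.84 in both). Without the bulb signal r rose only for both Gbf1 genes, and it fell most for Rph3a and Dst.

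Among the members themselves, 36 pairs were correlated over the 11 mice without bulb markers. The largest was Gbf1 with Abr (Pearson r = -0.74, permutation p = 0.00909, adjusted 0.327; Spearman rank correlation -0.63, permutation p = 0.0423, adjusted 0.497), and r was -0.47 without the 2 mice farthest from the Gbf1 median. None of the 36 passed adjustment.

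The members lie on 8 chromosomes (GRCm38), with Zc3h4 (chr7:16400910-16437696) and Clip3 (chr7:30291728-30308367) on the same one. Gbf1 lies at chr19:46152509-46286510, Abr at chr11:76416734-76622314, Map1a at chr2:121289600-121310832, Grm4 at chr17:27422387-27521403, Rph3a at chr5:120940499-121010092, Sipa1l2 at chr8:125418063-125569808 and Arhgef11 at chr3:87617559-87738034. Exons of Arhgef11 overlap Lrrc71 and those of Map1a overlap Ppip5k1 on the opposite strand, both in the table. The study's methods state neither whether the libraries kept strand nor the strand setting of the counting, so shared reads at those overlaps are uncertain.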

How the data were processed

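RNA-seq was analysed from the prefrontal cortex of 16 mice in 4 groups taken from the labels. Per the labels and the study's methods, the authors quantified reads on GRCm38 with Salmon (1.1.0) and normalized them with DESeq2 (1.30.1). The deposited table holds normalized read counts, a signal that is not whole-numbered, for 18424 genes. Raw depth is unknown and no counting interval is given. The authors' column totals were 92.8% to 103.8% of their mean, and 0 sample columns were left unused.

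Members and gene lists were chosen with earlier results of these data known. The rule named the 9 members, Arid1b, 2 most correlated genes per member, and from each list the genes past the threshold or, with none, the gene of smallest p. Changes were fitted with limma (3.58.1, R 4.3.3; lmFit, eBayes with trend) on log2(value + 1), which understates changes of low genes, for genes with at least 10 reads in at least 4 samples, and adjusted by Benjamini-Hochberg over all genes tested (threshold 0.05). All 9 members passed that filter. Pairs of groups were fitted alone, and pooled terms used additive genotype and treatment terms. Exact permutation tests are two-sided, the pooled ones over 4900 rearrangements within treatment, and permutation of correlations used 100000 draws. Fits were tested on simulated data. Alternatives were pseudocounts of 0.1 and 8, no filter or a mean of at least 100, upper-quartile and quantile scaling, sample weights, a replicate block, all groups in 1 fit, the bulb score as a covariate, leaving out mice whose score lay over 2 log2 units above the median, and leaving out each mouse. Counts of the other catalogued targets under both bulb alternatives were added after seeing the data. Gene models were GENCODE M21. The partner list of Arhgef11 and Abr is not reported here.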

Additional observations from a re-analysis of the deposited data

Results flagged for a closer look

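In 5 of the 36 combinations of member and group, 1 mouse stood apart from the other 3 beyond Dixon's 95% critical value for 4 samples. Chance flags about 1 in 20 groups. Grm4 was 917.4 normalized reads in HT-Veh replicate 4, against 555.7 to 595.0 in the others. Abr was 13214 in that same mouse, against 14699 to 15002. In WT-Veh replicate 1 Rph3a was 9486 against 17021 to 17224, Map1a was 25437 against 43142 to 45409 and Clip3 was 9095 against 14516 to 15163. Both mice are among the 5 with olfactory bulb markers, and the part of that tissue in these values was not tested.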

How the results depend on the processing

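No member passed the adjusted threshold in any comparison under any alternative: the count was 0 throughout, and the lowest limma adjusted p of any member was 0.237, for Gbf1 in HT-Flx versus WT-Flx without HT-Flx replicate 1. Of the 63 changes (9 members in 7 comparisons), 49 turned sign under at least 1 alternative, 37 of them when 1 mouse was left out, 30 with the bulb score as a covariate and 30 without the 5 mice. None of the 63 turned with another pseudocount, another filter or the replicate block, and none of the 36 changes between pairs of groups turned with all 4 groups in 1 fit. Gbf1 kept its direction in WT-Flx versus WT-Veh, HT-Flx versus WT-Flx, the interaction and genotype over both treatments under all alternatives, as did Abr in HT-Flx versus WT-Flx and genotype over both treatments. The cause of the turns was not tested. Calls over all genes also moved: for genotype over both treatments 7 genes passed and 23 with sample quality weights, and in HT-Veh versus WT-Veh 3 and 18. Depth is unknown and 4 mice a group limit the precision.

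Same-numbered mice deviated together only in part. In the 4 pairs of groups 2, 1, 3 and 2 of 4 same-numbered pairs had a correlation over 0.1, and 2 of 4 mice correlated best with their own number in each. The mean correlation of same-numbered mice was 0.035, 0.086, 0.20 and 0.056, against 0.0056, -0.029, -0.056 and -0.019 for other numbers. With 4 mice a group these values cannot settle whether the numbers pair the mice, and the main fits treat them as unpaired. A replicate block left 0 members past the threshold in every comparison.

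The log2 changes that turned sign were as follows. With sample quality weights, the log2 change was -0.066 for Arhgef11 and -0.094 for Rph3a in HT-Veh versus WT-Veh. For HT-Flx versus HT-Veh it was -0.0014 for Sipa1l2, -0.029 for Map1a and -0.015 for Abr. For WT-Flx versus WT-Veh it was -0.16 for Rph3a. For HT-Flx versus WT-Flx it was -0.0098 for Zc3h4 and -0.087 for Clip3. For the interaction it was 0.17 for Rph3a. For genotype over both treatments it was -0.037 for Arhgef11, -0.051 for Sipa1l2, -0.0029 for Zc3h4 and -0.036 for Rph3a. For fluoxetine over both genotypes it was -0.066 for Rph3a and -0.030 for Clip3. Without the 5 mice with bulb markers, the log2 change was -0.076 for Arhgef11, -0.012 for Zc3h4 and -0.092 for Rph3a in HT-Veh versus WT-Veh. For HT-Flx versus HT-Veh it was 0.13 for Grm4, -0.021 for Arhgef11, -0.0085 for Sipa1l2, -0.050 for Rph3a, -0.10 for Map1a and -0.027 for Abr. For WT-Flx versus WT-Veh it was -0.25 for Grm4, 0.037 for Arhgef11, 0.12 for Zc3h4 and -0.089 for Rph3a. For HT-Flx versus WT-Flx it was 0.23 for Grm4, -0.13 for Arhgef11, -0.017 for Sipa1l2, -0.21 for Zc3h4, -0.053 for Rph3a and -0.078 for Clip3. For the interaction it was 0.38 for Grm4, -0.059 for Arhgef11, 0.039 for Rph3a and -0.025 for Map1a. For genotype over both treatments it was -0.096 for Arhgef11, -0.058 for Sipa1l2, -0.082 for Zc3h4 and -0.079 for Rph3a. For fluoxetine over both genotypes it was -0.0038 for Gbf1, -0.062 for Rph3a and -0.080 for Clip3. With values scaled to a common upper quartile, the log2 change was -0.0061 for Sipa1l2, -0.0086 for Rph3a, -0.019 for Map1a and -0.0062 for Abr in HT-Flx versus HT-Veh. For HT-Flx versus WT-Flx it was -0.0083 for Clip3. With quantile normalization, the log2 change was -0.010 for Sipa1l2, -0.010 for Rph3a, -0.022 for Map1a and -0.023 for Abr in HT-Flx versus HT-Veh. For HT-Flx versus WT-Flx it was -0.0061 for Rph3a and -0.041 for Clip3. With all 4 groups and the bulb score as a covariate, the log2 change was 0.15 for Grm4, -0.053 for Arhgef11, -0.016 for Sipa1l2, -0.090 for Rph3a, -0.11 for Map1a and -0.0096 for Abr in HT-Flx versus HT-Veh. For WT-Flx versus WT-Veh it was -0.24 for Grm4, 0.097 for Arhgef11, 0.063 for Zc3h4, 0.12 for Map1a and 0.0096 for Abr. For HT-Flx versus WT-Flx it was 0.24 for Grm4, -0.15 for Arhgef11, -0.13 for Zc3h4, -0.30 for Rph3a, -0.11 for Map1a and -0.25 for Clip3. For the interaction it was 0.38 for Grm4, -0.15 for Arhgef11, -0.23 for Map1a and -0.019 for Abr. For genotype over both treatments it was 0.012 for Grm4, -0.058 for Arhgef11, -0.026 for Sipa1l2, -0.027 for Zc3h4, -0.11 for Rph3a and -0.029 for Clip3. For fluoxetine over both genotypes it was -0.037 for Grm4, 0.019 for Arhgef11 and 0.0036 for Map1a.

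With each mouse left out in turn, the log2 change in HT-Veh versus WT-Veh ran from -0.38 to 0.016 for Grm4, -0.13 to 0.12 for Arhgef11, -0.033 to 0.12 for Zc3h4, -0.15 to 0.13 for Rph3a, -0.043 to 0.26 for Map1a and -0.020 to 0.25 for Clip3. In HT-Flx versus HT-Veh it ran from -0.050 to 0.075 for Rph3a, -0.13 to 0.055 for Clip3, -0.20 to 0.13 for Grm4, -0.021 to 0.067 for Arhgef11, -0.035 to 0.089 for Sipa1l2, -0.10 to 0.065 for Map1a, -0.027 to 0.048 for Abr, -0.11 to 0.017 for Zc3h4 and -0.20 to 0.043 for Gbf1. In WT-Flx versus WT-Veh it ran from -0.18 to 0.10 for Rph3a, -0.065 to 0.19 for Clip3, -0.093 to 0.34 for Grm4, -0.12 to 0.052 for Zc3h4 and -0.22 to 0.050 for Arhgef11. In HT-Flx versus WT-Flx it ran from -0.049 to 0.11 for Zc3h4, -0.059 to 0.10 for Clip3 and -0.016 to 0.10 for Rph3a. In the interaction it ran from -0.11 to 0.062 for Zc3h4, -0.092 to 0.19 for Rph3a, -0.24 to 0.034 for Clip3, -0.020 to 0.25 for Arhgef11, -0.37 to 0.059 for Grm4 and -0.020 to 0.29 for Map1a. In genotype over both treatments it ran from -0.049 to 0.083 for Rph3a, -0.0016 to 0.13 for Clip3 and -0.0072 to 0.063 for Sipa1l2. In fluoxetine over both genotypes it ran from -0.078 to 0.055 for Rph3a, -0.047 to 0.086 for Clip3, -0.061 to 0.14 for Grm4, -0.087 to 0.039 for Arhgef11 and -0.032 to 0.0039 for Abr.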
